A study of Mus musculus with 6 samples.

Results

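PDGF signalling runs through 2 receptor tyrosine kinases, PDGFRα (gene Pdgfra) and PDGFRβ (Pdgfrb), which are carried mainly by mesenchymal cells, and through 4 ligand genes. PDGF-AA and PDGF-CC bind chiefly PDGFRα, PDGF-BB binds both receptors, and PDGF-DD binds chiefly PDGFRβ. In the lung, epithelial PDGF-A acts on neighbouring PDGFRα+ mesenchyme during alveolar development, and endothelial PDGF-B recruits PDGFRβ+ pericytes. PDGF-A and PDGF-B are cut to their active form inside the cell, whereas PDGF-C and PDGF-D are secreted with a CUB domain that extracellular proteases remove. The 6 genes were taken by symbol from the count tables, where all 6 had a row in each of the 6 libraries, among 30828 to 32285 gene rows per table. They are described here because the lung cells were sorted on a reporter of the Pdgfra locus.

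Single-cell RNA sequencing was performed on 6 libraries, 1 per condition, each pooling cells of 3 mice. GFP+ lung cells came from male mice aged 10 to 14 weeks that express EGFP from the Pdgfra locus (B6.129S4-Pdgfra tm11(EGFP)Sor/J). They were taken on day 14 after 1 oropharyngeal dose of PBS or bleomycin (single-dose PBS and single-dose bleo, where one label field gives 2 U/kg and another 4 U/kg). In the repetitive experiment, cells were taken 14 days after the last of 3 weekly doses of PBS or of bleomycin (1 U/kg in the first and second week and 0.5 U/kg in the last; repetitive PBS and repetitive bleo). In the organoid experiment, GFP+ cells of PBS-dosed mice (normal) or bleomycin-dosed mice (fibrogenic) were grown for 2 weeks with Tomato+ type 2 alveolar epithelial cells (AEC2s) of undosed SpcCreER × Rosa-td26 mice. The GFP+ cells were taken on day 14, after bleomycin at 2 U/kg in the fibrogenic group. The AEC2s were tagged with tamoxifen. The sources differ on the mix at plating, since the labels give AEC2s and GFP+ cells as 10 to 1 and the study's methods give more GFP+ cells than AEC2s. With 1 library per condition, no spread between mice was measured, so every interval below is a 95% interval that covers counting error alone. Exact intervals were used for CPM, the UMIs of a gene per 1000000 UMIs (Poisson), and for shares of cells (Clopper-Pearson). For log2 ratios, binomial limits were put on the split of a gene's UMIs between the 2 libraries, with the pseudocount added after. The intervals for CPM and ratios count UMIs as independent, although UMIs of a gene can gather in few cells. Conditions were compared without a test. A difference between libraries therefore cannot be told apart from a difference between those pools.

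Libraries held 1015 to 10737 barcodes and 7201081 to 238618743 UMIs. The median depth was 10178 UMIs per barcode in repetitive PBS and 2478 in repetitive bleo, where 43.7% of barcodes had fewer than 2000 UMIs, and it was 36841 in the normal and 4290 in the fibrogenic organoid library. Fibroblasts (FBs) were barcodes in clusters with FB markers such as Col1a1 and Col3a1. The lung FBs exclude mesothelial-like and smooth muscle-like clusters and clusters led by immune genes. The organoid FBs keep a smooth muscle-like cluster (26 normal and 247 fibrogenic barcodes) and a pericyte-like cluster (147 and 24). FBs numbered 896 and 812 in single-dose PBS and bleo, 5326 and 7860 in repetitive PBS and bleo, and 2320 and 4082 in normal and fibrogenic organoids, and 1924 and 2112 organoid barcodes were epithelial. All 6 FB markers were detected in the FBs of every library, at a summed level of 6180 to 23037 CPM, against at most 86.0 CPM for 6 endothelial markers and at most 102.0 CPM for 6 macrophage markers. Clusters were assigned by these same lists, so these levels are a description and no separate check of identity. Other lists stood higher in some FBs. The summed level of 5 airway secretory markers was 716 CPM in single-dose PBS, of which 704 CPM was 1 gene, and 17.2 CPM in single-dose bleo, and 6 AEC2 markers reached 621 and 705 CPM in normal and fibrogenic organoid FBs. Values without barcodes that held 2 or more markers of another cell type are given where they turn a result. Libraries of the same experiment shared 2, 28 and 13 barcode sequences (single-dose, repetitive and organoid). Clusters are named "X-like" for the populations LipoFB (lipofibroblast), MatrixFB (matrix FB) and MyoFB (myofibroblast) whose markers they raised, and neither the 6 PDGF genes nor the other genes of the pathway were used to form them.

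Upstream reference sequence was read for the members whose levels divide the FB populations. RefSeq promoter windows on build GRCm38.p6 were held for 4 of the 6 genes, and the 250 bases before the start are printed for Pdgfra, Pdgfc and Pdgfd, whose windows held no annotated exon. Capitals mark matches to the motifs searched on both strands, which were a GC box (GGGCGG), an EGR1 site (GCGGGGGCG), a TATA box (TATAAA), an AP-1 site (TGANTCA), an E-box (CANNTG) and the CArG box of serum response factor.
Pdgfra, chr5:75152001-75152250, plus strand: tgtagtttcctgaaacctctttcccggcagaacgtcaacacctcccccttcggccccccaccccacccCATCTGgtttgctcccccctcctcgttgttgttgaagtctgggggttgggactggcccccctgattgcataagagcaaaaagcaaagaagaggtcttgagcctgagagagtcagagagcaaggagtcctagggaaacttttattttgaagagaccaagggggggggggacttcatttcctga
Pdgfc, chr3:81036166-81036415, plus strand: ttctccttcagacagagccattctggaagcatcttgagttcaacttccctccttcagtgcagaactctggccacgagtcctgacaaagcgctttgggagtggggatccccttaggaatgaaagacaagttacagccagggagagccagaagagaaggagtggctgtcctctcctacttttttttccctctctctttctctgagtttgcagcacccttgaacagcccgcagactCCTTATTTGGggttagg
Pdgfd, chr9:6168236-6168485, plus strand: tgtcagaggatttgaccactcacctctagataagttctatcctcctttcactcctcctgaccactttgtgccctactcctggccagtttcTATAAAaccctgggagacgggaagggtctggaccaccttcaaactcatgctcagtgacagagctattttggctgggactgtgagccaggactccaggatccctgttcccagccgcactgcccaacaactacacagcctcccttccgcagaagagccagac
Pdgfc held a CArG box 17 to 8 bases before its start, a motif found in 1.47% of 32851 promoter windows of this length. Pdgfra held a single E-box, found in 66.2% of windows, and Pdgfd a TATA box 160 to 155 bases before its start, found in 12.4% of windows. The 2 windows of Pdgfa held 1 and 2 GC boxes (32.7% of windows) at a GC content of 66.4% and 72.4%, against 54.4%, 50.8% and 53.6% for Pdgfra, Pdgfc and Pdgfd. No EGR1 or AP-1 letters were in the 5 windows. These matches describe the letters alone. Pdgfra lies at chr5:75152292-75198215, Pdgfa at chr5:138976014-138997370, Pdgfb at chr15:79995874-80014977, Pdgfc at chr3:81036416-81214040 and Pdgfd at chr9:6168584-6378850 (GRCm38, Gencode M21, all protein coding).

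The receptors differed in opposite directions in lung FBs after bleomycin. Pdgfra stood at 519 CPM (501 to 538) in single-dose PBS FBs and 294 CPM (283 to 304) in single-dose bleo FBs, and at 589 CPM (583 to 596) and 376 CPM (371 to 382) in repetitive PBS and bleo FBs. The bleo library was lower in both experiments, with log2 ratios of −0.82 (−0.89 to −0.75) and −0.65 (−0.67 to −0.62), which is under 2-fold. Pdgfrb stood at 28.2 CPM (24.1 to 32.8) and 131 CPM (124 to 139) in single-dose PBS and bleo FBs, and at 29.3 CPM (27.9 to 30.7) and 128 CPM (125 to 131) in repetitive PBS and bleo FBs. The bleo library was higher by a log2 ratio of 2.18 (1.96 to 2.41) in the first and 2.09 (2.01 to 2.16) in the second. Of 11456 genes with at least 30 UMIs in the single-dose FBs, 8.69% were 2-fold or more higher in bleo and 3.69% lower, and of 16106 such genes in the repetitive FBs the shares were 5.92% and 1.72%. Among members with at least 30 UMIs, 2 (Pdgfrb and Pdgfc) were past 2-fold in each experiment, both higher in bleo. Pdgfb was also past 2-fold in the single-dose FBs, on 16 UMIs, which makes 3 of the 6 members there, and it was past 2-fold under 4 of 9 alternatives. The sort bears on these values, since GFP+ cells were collected and Pdgfra drives GFP. Fewer cells of a population and less RNA per cell both lower a summed level and cannot be told apart in it.

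**Figure D1:**
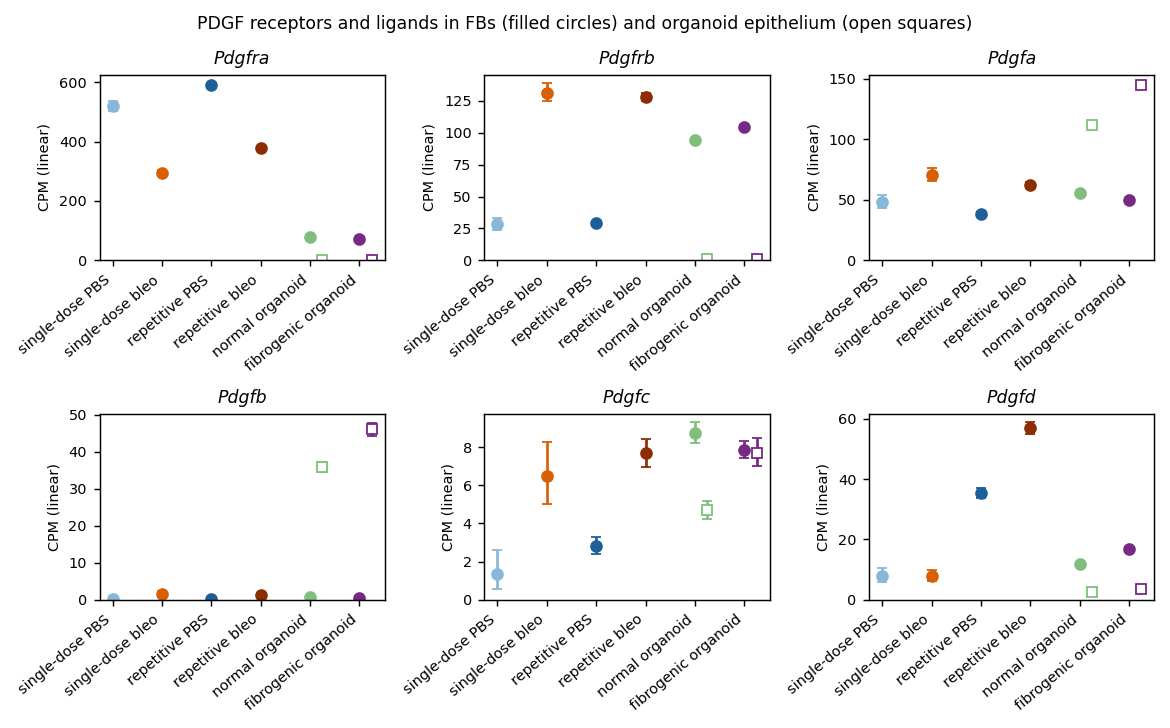
Level of each PDGF gene in CPM (linear axes from 0) in the FBs of the 6 libraries (filled circles) and in the organoid epithelium (open squares), with bars for the exact 95% Poisson interval. Pdgfra is lower and Pdgfrb higher in the bleo library of both lung experiments, while organoid epithelium is near 0 for both receptors and above the FBs for Pdgfa and Pdgfb.

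Among the ligands, Pdgfc was the one past 2-fold over all FBs in both lung experiments. It was under 2-fold inside each population compared below. It stood at 1.33 CPM (8 UMIs) in PBS and 6.50 CPM (66 UMIs) in bleo in the single-dose FBs, a log2 ratio of 1.69 (0.97 to 2.32), and at 2.81 CPM (163 UMIs) and 7.69 CPM (434 UMIs) in the repetitive FBs, a log2 ratio of 1.19 (0.98 to 1.39). With a pseudocount of 5 CPM in place of 1, both were under 2-fold (0.86 and 0.70). Pdgfa stood at 48.3 and 70.7 CPM in single-dose PBS and bleo FBs (log2 ratio 0.54) and at 38.1 and 62.3 CPM in repetitive PBS and bleo FBs (0.69). Few cells held much of that difference in the single-dose FBs, and less of it in the repetitive FBs. Without the 5 barcodes richest in Pdgfa in each library, the log2 ratios were 0.11 and 0.51. The single-dose ratio was 0.072 as a mean over cells and turned to −0.066 without barcodes that held 2 or more markers of another cell type. That filter left 835 of 896 PBS and 584 of 812 bleo FBs, and the bleo median fell from 11533 to 9801 UMIs. Which FB populations it removed was not tested. Pdgfb was near 0 in FBs, with 1 UMI against 15 UMIs in single-dose PBS and bleo, a log2 ratio of 1.09 on the CPM + 1 scale (0.22 to 1.36), and 13 UMIs against 76 UMIs in repetitive PBS and bleo (0.94). Without its 5 richest barcodes these became 0.76 and 0.21. Pdgfd stood at 7.97 and 7.98 CPM in single-dose PBS and bleo FBs (log2 ratio 0.00, −0.47 to 0.48) and at 35.4 and 56.9 CPM in repetitive PBS and bleo FBs (0.67, 0.59 to 0.75). The median member differed by 0.81 in the single-dose and 0.82 in the repetitive FBs, against 0.08 and 0.11 for the median of all genes. In both, this median lies between Pdgfa and Pdgfb, whose ratios fell without the 5 richest barcodes. The members ran from −0.82 (Pdgfra) to 2.18 (Pdgfrb) in the single-dose and from −0.65 to 2.09 in the repetitive FBs.

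**Figure D2:**
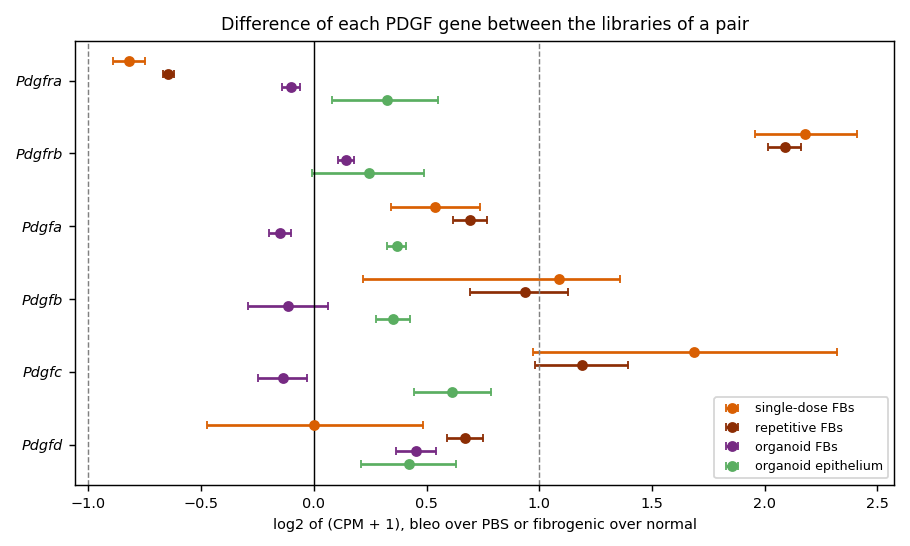
log2 ratio of CPM + 1 (bleo over PBS, or fibrogenic over normal) of each PDGF gene in the 4 comparisons, with bars for the 95% counting interval and dashed lines at 2-fold either way. Pdgfrb stands past 2-fold in both lung comparisons, at 2.18 and 2.09, and no member does so in the 2 organoid comparisons.

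Within each lung library the receptors differed between the named FB populations. Clusters left without a name held 28.6% and 32.6% of FBs in single-dose PBS and bleo, 33.3% in repetitive PBS and 71.2% in repetitive bleo, where they held 63.7% of Pdgfra and 58.1% of Pdgfrb UMIs, at 382 and 118 CPM. Pdgfra was highest in LipoFB-like cells, at 613 CPM (587 to 639, 558 cells) in single-dose PBS, 724 CPM (715 to 734, 2980 cells) in repetitive PBS and 778 CPM (756 to 800, 613 cells) in repetitive bleo. It stood at 195, 173, 241 and 209 CPM in the MatrixFB-like cells of single-dose PBS, single-dose bleo, repetitive PBS and repetitive bleo, and at 118 CPM (83 cells) and 158 CPM (460 cells) in the MyoFB-like cells of the single-dose and repetitive bleo libraries. Among populations of at least 50 cells, these intervals did not overlap within any library. Injured FB-like cells of single-dose bleo (273 cells, led by Hp, Bpifa2 and Mfap4) stood between, at 481 CPM (458 to 506).

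Pdgfrb was ordered the other way. LipoFB-like cells held 11.1 CPM in single-dose PBS, 10.4 CPM in repetitive PBS and 65.7 CPM in repetitive bleo, and MatrixFB-like cells held 72.0, 120, 94.9 and 141 CPM in the same order of libraries as above. MyoFB-like cells held 160 CPM (142 to 180) in single-dose bleo and 267 CPM (252 to 283) in repetitive bleo. The upper limit of MatrixFB-like cells in single-dose bleo, 141 CPM, lay just under the MyoFB-like lower limit. An unnamed cluster led by Sfrp1, Tmem178 and Cxcl9 (243 cells) held 180 CPM of Pdgfrb beside 259 CPM of Pdgfra. Injured FB-like cells held 83.2 CPM of Pdgfrb. With each cell assigned alone by its markers, the injured FBs of single-dose bleo (84 cells) held 179 CPM (157 to 203) of Pdgfrb and 272 CPM (245 to 301) of Pdgfra, so the place of this population among the others depended on the assignment. Peribronchial FB-like cells, of which repetitive bleo held 20, stood at 330 CPM of Pdgfrb, and at 192 CPM without the 5 richest cells, where MyoFB-like cells of that library stood at 236 CPM. The MyoFB-like cells of single-dose bleo stood at 124 CPM without their 5 richest cells, and the MatrixFB-like cells at 102 CPM without theirs.

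**Figure D3:**
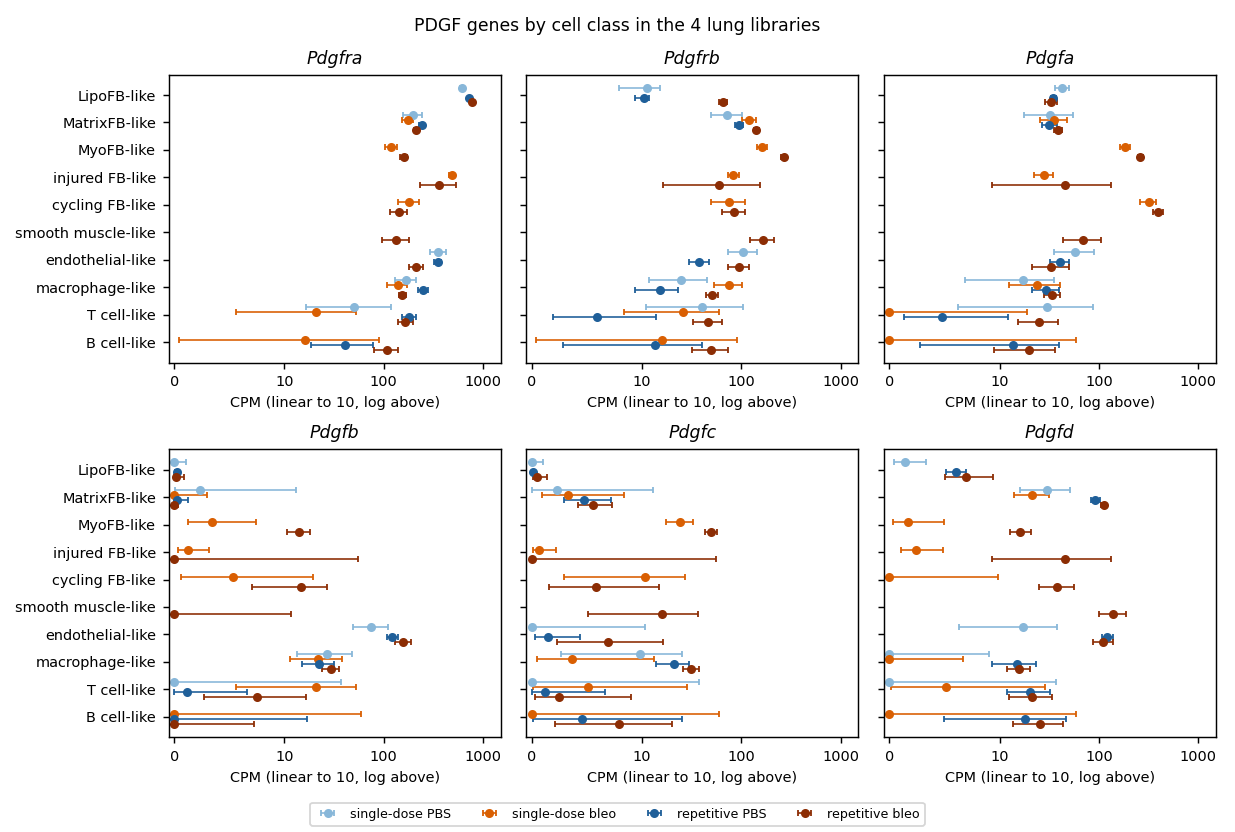
Level of each PDGF gene in CPM (linear to 10 and logarithmic above) by cell class in the 4 lung libraries, with bars for the exact 95% Poisson interval, for classes of at least 17 barcodes. Unnamed, peribronchial FB-like, mesothelial-like, epithelial-like, neutrophil-like and plasma cell-like barcodes are not drawn. Pdgfra is highest in LipoFB-like cells where a library has at least 17 of them, Pdgfrb is higher in MyoFB-like than in MatrixFB-like cells, Pdgfa and Pdgfc are higher in MyoFB-like than in LipoFB-like and MatrixFB-like cells, Pdgfb in endothelial-like barcodes, and Pdgfd in MatrixFB-like, smooth muscle-like and endothelial-like barcodes.

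Inside populations, the Pdgfra difference between PBS and bleo depended on how cells were assigned. In MatrixFB-like cells the log2 ratio of bleo to PBS was −0.17 (−0.54 to 0.21) in the single-dose and −0.20 (−0.31 to −0.10) in the repetitive experiment, and in LipoFB-like cells of the repetitive experiment it was 0.10 (0.06 to 0.15). The single-dose bleo library held 11 LipoFB-like cells, and no ratio was taken. Its injured FB-like cluster had Cpm and Ces1d among its leading genes, as had the main LipoFB-like cluster of repetitive bleo. Hp, Mfap4 and Adamtsl2, also among the leading genes of the former, are genes the study found enriched in its injured LipoFBs. Like cells may thus carry different names in the 2 experiments. When each cell was instead assigned alone, by the list of which it had the most markers, Pdgfra was lower in bleo in both populations of both experiments. LipoFB cells then stood at 574 CPM (705 cells) and 384 CPM (333 cells) in single-dose PBS and bleo, a log2 ratio of −0.58 (−0.67 to −0.49), and at 653 CPM (4122 cells) and 492 CPM (2509 cells) in repetitive PBS and bleo, a log2 ratio of −0.41 (−0.44 to −0.38), which turns the direction found by cluster. MatrixFB cells gave −0.66 (−0.88 to −0.44) and −0.20 (−0.27 to −0.13). Of the gated LipoFB cells, 876 of 2509 in repetitive bleo and 314 of 4122 in repetitive PBS were within 1 marker of another list. Pdgfrb was higher in bleo inside populations too, by 0.73 (0.17 to 1.33) and 0.57 (0.41 to 0.73) in the MatrixFB-like cells of the single-dose and repetitive experiments and by 2.54 (2.34 to 2.74) in repetitive LipoFB-like cells, and it stayed higher with each cell assigned alone, by 0.68 and 0.71 in MatrixFB and 2.47 and 2.41 in LipoFB cells. By cluster, the LipoFB-like value of Pdgfrb was the one past 2-fold among members with at least 30 UMIs. Of all such genes, 5.47% were 2-fold or more higher and 2.38% lower in repetitive LipoFB-like cells, 3.64% and 1.75% in repetitive MatrixFB-like cells and 6.94% and 3.62% in single-dose MatrixFB-like cells. Among the ligands inside MatrixFB-like cells, Pdgfa and Pdgfd both differed by 0.28 in the repetitive experiment (0.01 to 0.56 and 0.11 to 0.44) and by 0.11 (−0.76 to 1.06) and −0.49 (−1.46 to 0.55) in the single-dose experiment, and Pdgfa differed by −0.08 (−0.30 to 0.13) in repetitive LipoFB-like cells. With each cell assigned alone, Pdgfd in MatrixFB cells turned to −0.07 (−0.19 to 0.05) and Pdgfa in LipoFB cells to 0.16 (0.05 to 0.26), and Pdgfd in LipoFB cells stood at 0.89 (0.76 to 1.01) against 0.19 by cluster. In the single-dose experiment Pdgfa was then lower in bleo in both populations, with log2 ratios of −0.64 (−0.97 to −0.32) in LipoFB and −0.59 (−1.11 to −0.07) in MatrixFB cells, where the ratio over all FBs was 0.54. Pdgfc differed by 0.20 (−0.43 to 0.85) in repetitive and 0.36 (−2.11 to 2.26) in single-dose MatrixFB-like cells. In repetitive LipoFB-like cells it differed by 0.39, on 4 against 3 UMIs. With each cell assigned alone, Pdgfc stood at 0.55 and −0.57 in repetitive and single-dose MatrixFB cells and at 0.26 and 0.79 in LipoFB cells. No ratio was taken in MyoFB-like cells, of which single-dose PBS held 2. Different clusters held the LipoFB-like population in PBS (3 clusters led by Colq and Slc7a10, by B530045E10Rik and Pde4c, and by Mat2a and Rasgef1b) and in bleo (558 of 613 cells in a cluster led by Cpm and Chrna7). Pdgfrb in T cell-like barcodes, where the gene is not expected, also stood at 5.94 CPM (5 UMIs) in repetitive PBS and 46.2 CPM (37 UMIs) in repetitive bleo, and in B cell-like barcodes at 13.6 CPM (3 UMIs) and 49.3 CPM (25 UMIs). The part of UMIs from outside the cell in the LipoFB-like difference was not tested.

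Receptor detection was compared per cell after each barcode was thinned to 2000 UMIs, which left out 46, 26, 158 and 3199 shallower FBs of single-dose PBS, single-dose bleo, repetitive PBS and repetitive bleo. Pdgfra was then detected in 58.4%, 42.1%, 62.5% and 47.5% of FBs, and Pdgfrb in 4.24%, 20.9%, 5.17% and 21.1%. Before thinning the shares were 86.5%, 82.5%, 92.8% and 60.6% for Pdgfra and 13.8%, 59.5%, 21.4% and 38.9% for Pdgfrb. Both receptors were found in the same thinned cell in 2.24% of single-dose PBS, 9.16% of single-dose bleo, 2.73% of repetitive PBS and 9.53% of repetitive bleo FBs. In LipoFB-like cells, 0.38% (0.05 to 1.37) of single-dose PBS, 0.61% (0.36 to 0.96) of repetitive PBS and 3.41% (2.06 to 5.27) of repetitive bleo cells had Pdgfrb without Pdgfra. In MyoFB-like cells that share was 13.6% (6.98 to 23.0) in single-dose bleo and 28.4% (23.5 to 33.6) in repetitive bleo, and it was the largest of the 3 positive classes in the latter. Before thinning, 61 of 83 and 243 of 460 MyoFB-like cells of these libraries had Pdgfra, and 58 and 274 had Pdgfrb. A thinned cell without a receptor UMI may therefore still carry that receptor. After thinning, Pdgfra alone was found in 62.2% to 68.5% of LipoFB-like cells of the 3 libraries with at least 50 of them and in 19.8% and 20.7% of MyoFB-like cells. T cell-like barcodes of repetitive PBS and bleo, with median depths of 3614 and 3720 UMIs, gave 15.6% (9.36 to 23.8) and 21.4% (14.2 to 30.2) for Pdgfra and 0.92% (0.02 to 5.01) and 6.25% (2.55 to 12.4) for Pdgfrb. The Pdgfra share of MyoFB-like cells in repetitive bleo, 29.0% (24.1 to 34.2), overlapped that of T cell-like barcodes, and their Pdgfrb share, 36.6% (31.4 to 42.1), stood above it. The T cell-like barcodes had also passed the sort for GFP, and 7 of 128 in repetitive PBS held at least 10 Pdgfra UMIs. They are thus no empty reference for Pdgfra, and the overlap does not place MyoFB-like cells at background.

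**Figure D4:**
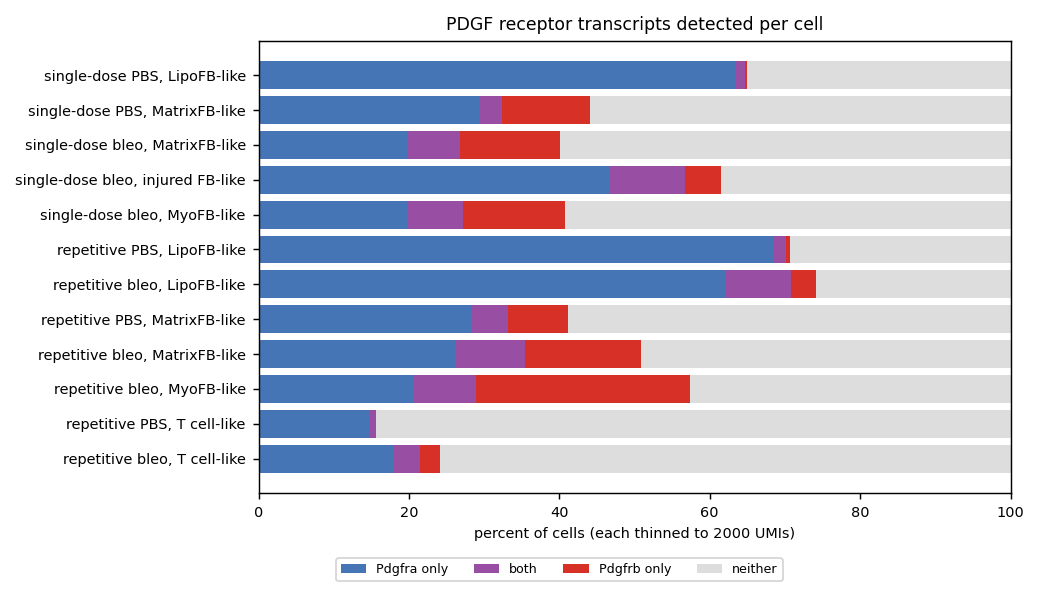
Percent of cells with a UMI of Pdgfra alone, both receptors, Pdgfrb alone or neither, for FB populations and T cell-like barcodes of the lung libraries, each cell thinned to 2000 UMIs. Pdgfra alone fills 62.2% to 68.5% of LipoFB-like cells, and Pdgfrb alone reaches 28.4% of the repetitive bleo MyoFB-like cells.

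Pdgfa and Pdgfc, the ligands that bind chiefly PDGFRα, stood higher in MyoFB-like than in LipoFB-like, MatrixFB-like and injured FB-like cells. Pdgfa stood at 183 CPM (164 to 204) in the MyoFB-like cells of single-dose bleo and 261 CPM (245 to 276) in those of repetitive bleo, against 27.7 to 38.8 CPM in the LipoFB-like, MatrixFB-like and injured FB-like populations of at least 50 cells in these libraries. With each cell assigned alone, injured FBs held 74.5 CPM (60.7 to 90.5) and 100.5 CPM (87.2 to 115) of Pdgfa in single-dose and repetitive bleo, and MyoFBs 289 CPM (230 to 358) and 262 CPM (238 to 288). Pdgfc stood at 24.0 CPM (17.3 to 32.4) and 49.6 CPM (43.1 to 56.7) in the same MyoFB-like cells, against 0.48 to 5.59 CPM in those populations. The 20 peribronchial FB-like cells of repetitive bleo held 81.4 CPM (48.2 to 129) of Pdgfc, on 18 UMIs, and 12.3 CPM without the 5 richest. MyoFB-like cells were 10.2% of single-dose bleo FBs with 17.3% of all their UMIs, and held 44.8% of their Pdgfa UMIs and 63.6% of their Pdgfc UMIs. In repetitive bleo they were 5.85% of FBs with 7.54% of UMIs, and held 31.5% and 48.6%. The UMIs were spread unevenly over these cells. In single-dose bleo, 47 of 83 MyoFB-like cells had a Pdgfa UMI, and the richest held 45 of 321. In repetitive bleo, 202 of 460 had one, and the richest held 98 of 1109. Without the 5 richest cells, Pdgfa still stood at 111 and 190 CPM and Pdgfc at 11.9 and 35.9 CPM in the MyoFB-like cells.

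Cycling FB-like cells carried the highest Pdgfa levels of any lung population, 317 CPM in single-dose bleo and 396 CPM in repetitive bleo, and these rested on very few cells. One of 17 single-dose cells held 112 of the 119 UMIs, and one of 48 repetitive cells held 171 of 271. Without the 5 richest cells the level was 0 UMIs in the first and 27.4 CPM in the second. Pdgfb in MyoFB-like cells was of the same kind. It stood at 13.9 CPM in repetitive bleo, with 59 UMIs in 13 of 460 cells, 31 of them in a single cell, and at 2.22 CPM without the 5 richest cells. In single-dose bleo 4 of 83 cells held 6 UMIs.

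Pdgfb and Pdgfd followed other cells. Pdgfb was highest in endothelial-like barcodes, at 74.9 CPM (48.9 to 110) in single-dose PBS, 121 CPM (107 to 138) in repetitive PBS and 158 CPM (130 to 190) in repetitive bleo, followed by macrophage-like barcodes, at 26.9, 21.8, 22.3 and 29.3 CPM in single-dose PBS, single-dose bleo, repetitive PBS and repetitive bleo. It stayed under 3 CPM in LipoFB-like and MatrixFB-like cells of all 4 lung libraries. Pdgfd, the PDGFRβ ligand, stood at 92.2 CPM (83.5 to 102) and 112 CPM (105 to 119) in the MatrixFB-like cells of repetitive PBS and bleo, against 6.02 and 6.98 CPM in LipoFB-like cells and 16.2 CPM in MyoFB-like cells of repetitive bleo. In the single-dose libraries it stood at 30.2 and 21.3 CPM in MatrixFB-like cells of PBS and bleo, 1.42 CPM in LipoFB-like cells of PBS and 1.71 CPM (3 UMIs) in MyoFB-like cells of bleo. The kit of the repetitive libraries is not given in the sources used here, and their tables have 32285 gene rows against 30830 and 30828 in the single-dose tables. A difference between experiments in the level of Pdgfd therefore cannot be told apart from one of counting. Smooth muscle-like cells of repetitive bleo held 138 CPM, and endothelial-like barcodes of repetitive PBS and bleo 122 and 111 CPM. The 32 mesothelial-like cells of repetitive bleo held 55 Pdgfd UMIs, 31 of them in 1 cell, and 29.9 CPM without the 5 richest cells. The MatrixFB-like cells were higher in Pdgfd than the LipoFB-like cells in the 3 libraries with at least 50 cells of each, with intervals that did not overlap. Unnamed clusters held 52.1%, 53.1%, 70.7% and 61.8% of FB Pdgfd UMIs in single-dose PBS, single-dose bleo, repetitive PBS and repetitive bleo. Their shares of all FB UMIs were 33.7%, 34.2%, 38.9% and 62.8%. Macrophage-like barcodes held Pdgfc at 20.8 CPM in repetitive PBS and 31.2 CPM in repetitive bleo.

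The endothelial-like and macrophage-like barcodes had passed a sort for GFP, and they carried Pdgfra as well. Endothelial-like barcodes held 351, 349 and 210 CPM of Pdgfra in single-dose PBS, repetitive PBS and repetitive bleo, and macrophage-like barcodes 138 to 249 CPM over the 4 lung libraries. The part of UMIs from outside these cells was not tested, and no doublet caller was run. T cell-like barcodes of repetitive PBS held 180 CPM of Pdgfra, with 151 UMIs in 25 of 128 barcodes.

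Other genes of the pathway were counted from a list of 27. In the single-dose FBs 4 were 2-fold or more higher in bleo and 0 lower, and in the repetitive FBs 3 were higher and 0 lower, where 8.69% and 5.92% of all genes were higher and 3.69% and 1.72% lower. The list had median log2 ratios of 0.47 and 0.29 against 0.08 and 0.11 for all genes. The 3 higher in both were Sparc, a matrix protein that binds PDGF, which stood at 2067 and 6720 CPM in single-dose PBS and bleo and 1458 and 4798 CPM in repetitive PBS and bleo, Pdgfrl, a receptor-like gene, at 19.3 and 47.9 CPM and 24.1 and 88.1 CPM, and Ptprj, a phosphatase that acts on PDGF receptors, at 0.66 and 5.42 CPM and 5.43 and 22.5 CPM. The 4th in the single-dose FBs was Plat, a protease that activates PDGF-C, at 67.4 and 163 CPM (log2 ratio 1.26), which was singled out after its value was seen, and its log2 ratio was 0.50 in the repetitive FBs. Ptprj had the highest log2 ratios of the list on the CPM + 1 scale (1.95 and 1.87), the first on 4 against 55 UMIs, and with a pseudocount of 5 CPM the single-dose count was 3. The lowest were Nck1, an adaptor, at −0.51 in the single-dose FBs (0.09 in the repetitive FBs), and Stat3, a transcription factor, at −0.39 in the repetitive FBs (0.66 in the single-dose FBs). None of the 12 adaptors, kinases and effectors was past 2-fold in either.

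Genes were ranked by the likeness of their pattern to each member, as Pearson's r of log2(CPM + 1) over 15 groups of at least 50 cells, each a single lung library and an FB population, unnamed FBs or, in 1 group, the smooth muscle-like cells of repetitive bleo. These groups share libraries and depth, so the values are descriptions, over 5080 genes that reached 50 CPM in a group. Pdgfra was most like Vipr2 (r = 0.97), Aldh1a1 (0.96) and Hsd11b1 (0.96), and Hsd11b1 is one of the LipoFB markers. Pdgfrb was most like Fstl1 (0.95), Rftn1 (0.95) and Adcy7 (0.94), Pdgfa like Hoxb2 (0.91), Hbegf (0.88) and Dusp5 (0.87), and Pdgfc like Inhba (0.95), S100a4 (0.93) and Stk17b (0.89). For Pdgfb no like genes are given, since 14 of the 15 groups held at most 7 UMIs of it and the other held 59 UMIs with 84.7% in 5 cells. Pdgfd was most like Sobp (0.98), Olfr1033 (0.95) and Foxp2 (0.95). These groups pool both lung experiments, whose PBS FBs differed in Pdgfd (7.97 CPM in single-dose and 35.4 CPM in repetitive). Among the members, Pdgfra had r = −0.77 with Pdgfrb, −0.54 with Pdgfa and −0.81 with Pdgfc, Pdgfrb had 0.76 with Pdgfc, and Pdgfa had 0.82 with Pdgfc. Pdgfc was near the floor in several groups, with 0 UMIs in LipoFB-like cells of single-dose PBS and 2 in injured FB-like cells of single-dose bleo. MyoFB-like cells of repetitive bleo held 211. Its r values therefore lean on groups near 0.

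In the organoids, receptors and ligands were divided between FBs and epithelium. Pdgfra stood at 77.0 and 71.7 CPM in the FBs of normal and fibrogenic organoids and at 0.37 and 0.71 CPM in their epithelium, and Pdgfrb at 94.4 and 104 CPM in FBs and 0.74 and 1.06 CPM in epithelium. Pdgfa stood at 55.2 and 49.7 CPM in FBs and at 112 and 145 CPM in epithelium, and Pdgfb at 0.70 and 0.57 CPM in FBs and 36.0 and 46.1 CPM in epithelium. Pdgfc stood at 8.74 and 7.84 CPM in FBs and 4.69 and 7.71 CPM in epithelium, and Pdgfd at 11.95 and 16.7 CPM in FBs and 2.51 and 3.70 CPM in epithelium. After thinning to 2000 UMIs, Pdgfra was found in 14.7% and 12.4% of normal and fibrogenic FBs and in 0 of 1791 and 0 of 1664 epithelial cells. Organoid FBs were lower in Pdgfra than the lung FBs of any library, although culture, library preparation and depth differ between these experiments and cannot be told apart. The organoid FBs also include smooth muscle-like cells, which the lung FBs leave out, and pericyte-like cells, a name no lung cluster was given. The pericyte-like cluster raised 3 pericyte markers but had 0 among its 10 leading genes. Of its 147 normal cells, 115 had a Pdgfra UMI, so its name is uncertain.

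The epithelial ligands followed different cell states. AEC1-like cells, those with markers of type 1 alveolar cells such as Hopx and Ager, held 504 CPM (489 to 520, 232 cells) of Pdgfa in normal and 565 CPM (545 to 585, 258 cells) in fibrogenic organoids. AEC2-like cells held 50.4 and 78.6 CPM, and cells with transitional markers such as Cldn4 and Krt8 held 218 and 195 CPM. In normal organoids 210 of 232 AEC1-like cells had a Pdgfa UMI. Pdgfb was highest in the transitional-like cells, at 239 CPM (229 to 249, 254 cells) and 173 CPM (166 to 181, 490 cells), against 41.3 and 47.6 CPM in AEC1-like and 6.21 and 7.89 CPM in AEC2-like cells. The transitional-like cells also held the highest epithelial Pdgfc, 20.4 and 24.9 CPM, and the highest epithelial Pdgfd, 19.2 and 15.4 CPM. The order AEC1-like, transitional-like, AEC2-like for Pdgfa and transitional-like, AEC1-like, AEC2-like for Pdgfb was the same in both libraries, with intervals that did not overlap.

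**Figure D5:**
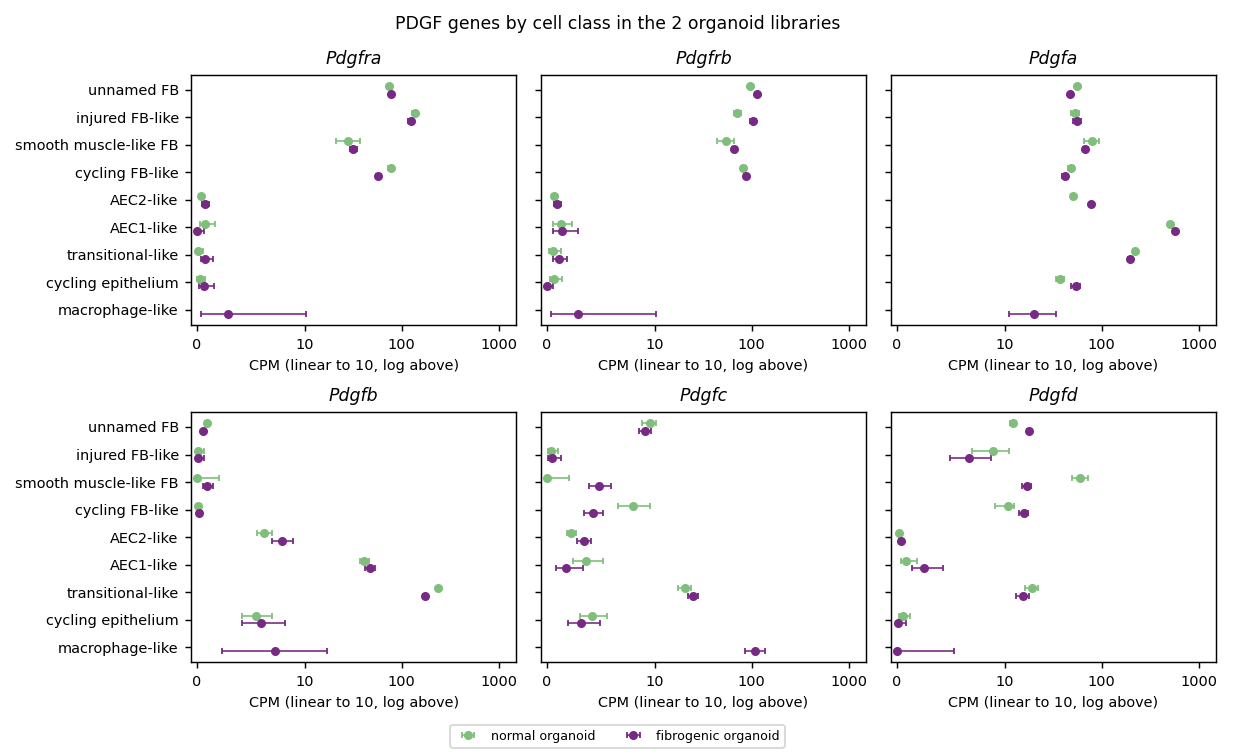
Level of each PDGF gene in CPM (linear to 10 and logarithmic above) by cell class in the 2 organoid libraries, with bars for the exact 95% Poisson interval, for classes of at least 17 barcodes. Pericyte-like FBs and unnamed epithelium are not drawn. Receptors are held by FB classes, Pdgfa is highest in AEC1-like cells (504 and 565 CPM) and Pdgfb in transitional-like cells (239 and 173 CPM).

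No member was past 2-fold between normal and fibrogenic organoids, in FBs or in epithelium, where 0.27% and 0.243% of genes were 2-fold or more higher and 0.699% and 0.128% lower. In FBs the log2 ratios ran from −0.15 (Pdgfa) to 0.45 (Pdgfd, 0.36 to 0.54). Those of Pdgfra and Pdgfb, −0.10 and −0.12, turned to 0.077 and 0.80 without barcodes that held markers of another cell type, where Pdgfd reached 0.81. In epithelium they ran from 0.24 (Pdgfrb) to 0.62 (Pdgfc, 0.44 to 0.79). In AEC2-like cells Pdgfa differed by 0.63 (0.55 to 0.71), and in AEC1-like cells by 0.16 (0.10 to 0.23). In transitional-like cells Pdgfb differed by −0.46 (−0.55 to −0.38), opposite in sign to the whole epithelium at 0.35. The whole-epithelium value kept its sign under 7 of 9 alternatives and was −0.21 at the lowest. Transitional-like cells were 254 of 1924 normal and 490 of 2112 fibrogenic epithelial barcodes. They held 2156 of 2853 and 2164 of 2735 epithelial Pdgfb UMIs, and the part of their share in the whole-epithelium value was not tested. Pdgfc differed by 0.45 (0.17 to 0.73) in AEC2-like, 0.27 (0.02 to 0.53) in transitional-like and −0.71 (−1.44 to 0.07) in AEC1-like cells, each under its whole-epithelium value. These cell classes sat in different clusters by library. A cluster with a median of 1798 UMIs held 165 of the 490 fibrogenic and 3 of the 254 normal transitional-like cells, and in the largest shared cluster, led by Ankrd1 and Fermt1, Pdgfb stood at 260 CPM (249 to 272, 149 cells) in normal and 206 CPM (197 to 216, 184 cells) in fibrogenic organoids. The AEC2-like cluster lowest in Pdgfa among those of at least 50 cells in each library, led by Dmkn and Cxcl5, held 551 of 1066 normal and 124 of 766 fibrogenic cells, at 29.1 and 25.2 CPM, while the cluster led by Ror1 and Bex2 held 265 and 392 cells at 48.2 and 58.2 CPM. For each of these clusters, 6 AEC2 markers counted toward the name. Neither had a gene of the AEC2 list used here among its 10 leading genes. The second had Lyz2 there, which the lists used here count for macrophages alone, so it is no sign of macrophages by itself. None of the class differences was past 2-fold, where 0.18% of genes were 2-fold or more higher and 1.22% lower in AEC1-like cells, 0.3% and 0.118% in AEC2-like cells and 0.673% and 0.664% in transitional-like cells. A cluster of organoid FBs led by Timp3 and Crabp2 (140 and 102 cells) held 186 and 175 CPM of Pdgfa and 48.8 and 63.4 CPM of Pdgfc, with 22.5 and 17.1 CPM of Pdgfra. This cluster was unnamed, and it was singled out after its values were seen. In the pathway list Pcsk5, a convertase, was the gene of the organoid FBs past 2-fold, at 230 and 86.8 CPM, and Plat that of the epithelium, at 4.61 and 12.6 CPM, and both were named after their values were seen.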

How the data were processed

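The 6 libraries were sequenced from sorted or cultured cells of 3 pooled mice each. Reads were processed by the authors in Cell Ranger 3.0.1 (mm10, per the labels, which also name Seurat 3), and raw UMI counts were deposited per gene symbol and barcode, without normalization. Per their methods the single-dose libraries used the Chromium 3′ v2 kit, and the kit of the other libraries is not given in the sources used here. The methods name GRCm38 and Gencode M17 without separating the experiments. The repetitive and organoid tables have 32285 gene rows against 30830 and 30828 in the single-dose tables, so a shared annotation was not established. The single-dose PBS table also has rows for eGFP and tdTomato.

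Each experiment's tables were joined on the genes they share (Python 3.11.15). Counts were scaled per barcode and log transformed, 2000 variable genes were reduced to 30 principal components, and a graph of 20 nearest neighbours was partitioned with Leiden clustering (igraph 0.11.9, resolution 1). The 6 members, the 27 pathway genes and mitochondrial genes were left out of clustering. Barcodes were dropped where the mitochondrial or erythrocyte share exceeded the cluster median by 3 scaled median absolute deviations, as were clusters above 25% mitochondrial or 0.5% erythrocyte counts. A cluster was assigned to another cell type when it held at least 3 of that type's markers, each in at least 20% of cells and at 20% or more of its level in the richest cluster (5% for lung FB markers, 10% for organoid epithelial markers). FBs and organoid epithelium were clustered again, and a cluster was named when at least 3 and at least 50% of a list's markers stood 1 log2 unit or more above the other clusters and in at least 20% of its cells. A name was withheld where the leading genes belonged more to another list. Epithelial clusters left without a name were called AEC2-like where at least 3 AEC2 markers reached 50% of the richest cluster's level. This last step did not withhold a name for a leading gene of another list. The AEC2-like cluster led by Ror1 and Bex2 had 0 AEC2 markers and 1 marker of another list among its 10 leading genes. Rebuilt names may differ from those of the study. No doublet caller was run. Clusters with at least 3 markers of another cell type among their 10 leading genes were set aside as mixed.

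UMIs were summed per group as CPM. Levels were compared as log2 ratios of CPM + 1, and a gene with a ratio of at least 2-fold was counted as past 2-fold. The share of all genes past 2-fold was taken over genes with at least 30 UMIs. Steps were tested on simulated data. Genes named are the 6 members, pathway genes past 2-fold in both lung experiments with the highest and lowest of each, the 3 genes most like each member except Pdgfb, and markers. The members and lists were chosen with earlier results of these data known.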

Additional observations from a re-analysis of the deposited data

Results flagged for a closer look

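The eGFP row of the single-dose PBS table lies outside the comparisons, since no other table has one. It stood at 757 CPM (736 to 780) in FBs, above the 0.50 CPM that 3 UMIs would give, and tdTomato had 0 UMIs. eGFP was at 967 CPM in LipoFB-like and 358 CPM in MatrixFB-like cells, the same order as Pdgfra at 613 and 195 CPM. Of 896 FBs, 82.1% had UMIs of both, 10.5% of eGFP alone, 4.35% of Pdgfra alone and 3.01% of neither. Across these FBs the Spearman correlation of eGFP and Pdgfra UMIs, scaled to each cell's depth, was 0.27, given as a description over cells of 1 library. Endothelial-like and macrophage-like barcodes held 415 and 245 CPM of eGFP.

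3 members differed in opposite directions between the FBs and the epithelium of the organoids, each with a counting interval on its own side of 0. The log2 ratios of fibrogenic to normal were −0.10 and 0.32 for Pdgfra, −0.15 and 0.37 for Pdgfa, and −0.14 and 0.62 for Pdgfc, FBs first. Epithelial Pdgfra rested on 29 and 42 UMIs. Without barcodes holding markers of another cell type, both Pdgfra values turned, to 0.077 in FBs and −0.33 in epithelium, and Pdgfa turned to −0.81 in epithelium, the same sign as in FBs. As a mean over cells epithelial Pdgfa was −0.035. Pdgfc in FBs kept its sign under 8 of 9 alternatives and was 0.045 at the highest. Inside AEC2-like, transitional-like and AEC1-like cells the epithelial Pdgfc ratio was 0.45, 0.27 and −0.71. Pdgfra also differed in opposite directions between LipoFB-like (0.10) and MatrixFB-like cells (−0.20) of the repetitive experiment. With each cell assigned alone both were lower in bleo, at −0.41 and −0.20. These differences were not tested, since each rests on 1 library per condition.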

How the results depend on the processing

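No paired analysis was possible because each condition has 1 library, and no replicate could be left out. Pdgfrb stayed past 2-fold in both lung experiments under all 9 alternatives, and Pdgfra stayed lower in bleo and under 2-fold under the same 9. With a pseudocount of 5 CPM, the members past 2-fold numbered 1 in the single-dose FBs (3 as reported), 1 in the repetitive FBs (2 as reported), and the pathway genes of the organoid epithelium 0 (1 as reported). The Pdgfra log2 ratio of the single-dose FBs was −0.74 as a mean over cells, −0.90 centred on the median gene and −0.70 without barcodes that held 2 or more markers of another cell type. That of the repetitive FBs was −0.68 as a mean over cells, −0.75 centred on the median gene and −0.70 over all barcodes. In the organoid FBs it was 0.19 over all barcodes and 0.077 without barcodes holding markers of another type, both above 0 where the reported value is below it. The latter left 667 of 2320 and 1701 of 4082 barcodes, at median depths of 5036 and 2189 UMIs. In the organoid epithelium it was 0.061 as a mean over cells and −0.33 without such barcodes, which left 337 of 1924 and 517 of 2112 barcodes, with median depths of 4001 and 1818 UMIs against 39943 and 28773 UMIs. There 1 member was past 2-fold (0 as reported), and Pdgfa turned to −0.81. In the same setting Pdgfa of the single-dose FBs turned to −0.066 and Pdgfb of the organoid FBs to 0.80 (0.86 as a mean over cells). The members past 2-fold numbered 2 in the single-dose FBs over all barcodes, without such barcodes, at resolution 2 and without the 5 richest barcodes, and 3 in the repetitive FBs at resolution 2. Leaving out the 5 richest barcodes of each member was chosen after seeing the data. Gating each cell alone kept the order of LipoFB, MatrixFB and MyoFB in 20 of 24 member and library pairs, and moved 36 of 66 levels outside their counting interval. All of these populations were ordered in repetitive bleo alone, and the other libraries ordered a single pair, which is easily kept. Some orders rested on few UMIs, such as Pdgfb in single-dose PBS (0 in LipoFB-like and 1 in MatrixFB-like cells). The exceptions in order were Pdgfa in both PBS libraries and Pdgfb and Pdgfd in repetitive bleo. It turned the Pdgfra ratio of repetitive LipoFBs to −0.41 (0.10 by cluster). Thinning to 1000 or 5000 UMIs moved all 16 detection shares.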
